A study of Mus musculus with 4 samples.

Results

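Transcripts of 10 DEAD-box RNA helicases of the nucleolus were compared between mouse embryonic fibroblasts (MEFs) with and without the chromatin-associated protein Pf1. The genes Ddx10, Ddx18, Ddx21, Ddx27, Ddx47, Ddx49, Ddx51, Ddx52, Ddx54 and Ddx56 were taken by name. Earlier results of these data were known when these genes were chosen. Their probe sets were found through the gene symbols of the array platform. All 10 genes were measured, by 22 of the 45101 probe sets and among 18194 genes in all. Lines 2 and 4 carried the genotype Pf1 -/- (here KO2 and KO4) and lines 5 and 6 the genotype Pf+/+ (wild type, here WT5 and WT6), with 1 array per line, so that n = 2 lines per genotype. Every line has the prefix 7706. They are primary cells from dispersed torsos of embryos of day 13.5 or 14.5, used at passage 2 to 3 and kept in 6% oxygen, and which day or passage belongs to which line is not stated. How the Pf1 allele was made, and the strain and sex of the embryos, are not given in the sources used here. No label says that the lines came from separate embryos, so the p-values measure only the spread between these lines.

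DEAD-box proteins are ATP-driven enzymes that open short RNA duplexes and displace proteins from RNA, and they are named for the amino acids of a conserved ATPase motif. In the nucleolus the precursor of ribosomal RNA (rRNA) is transcribed by RNA polymerase I, folded with small nucleolar RNAs (snoRNAs), cleaved and packed with ribosomal proteins, and different helicases act at different steps of the small (40S) and the large (60S) subunit. The study concerns the part of Pf1, a partner of Sin3 corepressor complexes, in keeping the nucleolus intact.

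Values are log2 signals, shifted so that the median of each probe set over the 4 arrays is 0. They show how lines differ and hold no level, so transcript levels cannot be compared between genes. With 4 arrays, the middle pair of values of a single probe set are mirror images around 0. Each difference subtracts the wild-type mean from the knockout mean and carries the standard error (SE) of the fit. Phf12, which encodes Pf1, was checked first. Its probe set 1434922_at was at -0.37 in KO2, -0.41 in KO4, 0.56 in WT5 and 0.37 in WT6, whereas 1453579_at was at -0.0047, 0.0047, 0.051 and -0.075 in KO2, KO4, WT5 and WT6 and overlapped between the genotypes. The first was 1.81-fold lower in the knockout (-0.86 ± 0.109, limma adjusted p = 0.0213). Averaged per gene, Phf12 stood at -0.42 ± 0.0934 and was not called (limma adjusted p = 0.0504). The sources used here do not say where either lies relative to the deleted part.

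Most of these helicases were higher in the knockout lines. Of the 10 genes, 6 rose (Ddx21, Ddx56, Ddx52, Ddx27, Ddx18 and Ddx51), 0 fell and 4 (Ddx10, Ddx49, Ddx47 and Ddx54) did not pass the test, a limma fit over all genes with a gene called at a Benjamini-Hochberg adjusted p under 0.05. The same test called 5.21% of all genes higher, a share given for comparison only, since the members were chosen with earlier results known. By unadjusted p, also at 0.05, 7 members were higher and 0 lower, against 14.3% of all genes higher. All 10 differences were positive, as were 49.2% of those of all genes, and 5 members were at least 1.5-fold higher, against 4.29% of all genes. The median difference of the members was 0.53 on the log2 scale, and that of all genes was -0.0027. Leaving out any 1 of the 4 lines ended every call of a member, while every difference kept its direction. In 9 members that direction was fixed in advance, since both knockout lines lay above both wild-type lines.

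**Figure D1:**
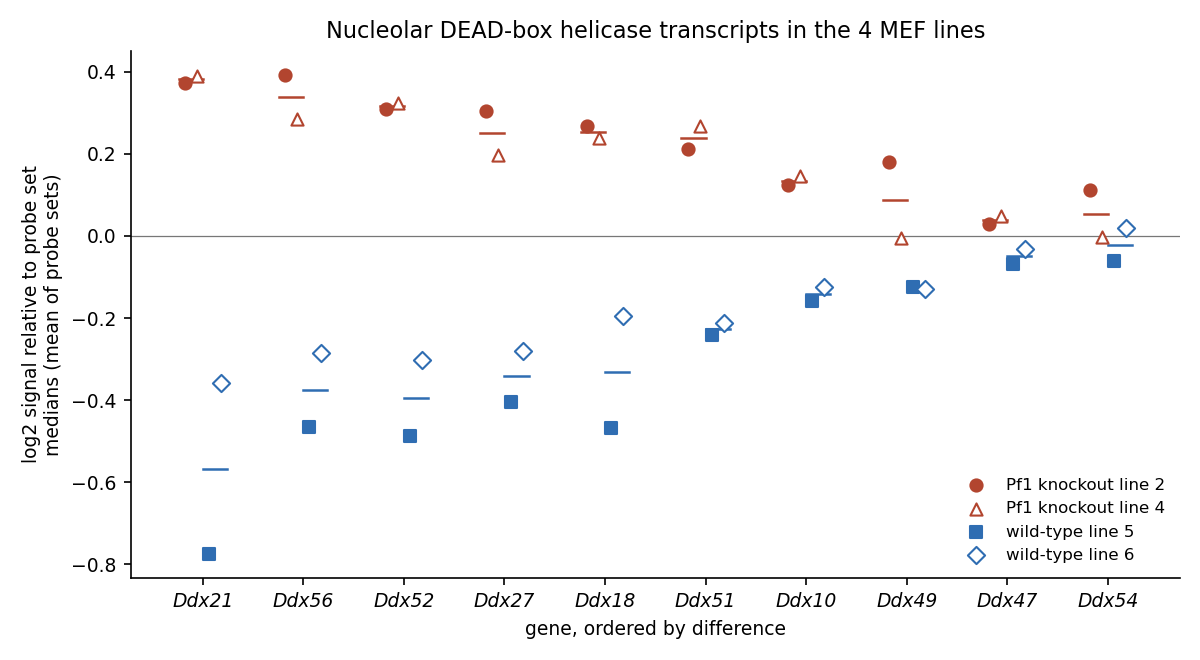
Log2 signal of each helicase gene (vertical axis, mean of its probe sets relative to their medians over the 4 arrays) in the 2 knockout lines (red) and 2 wild-type lines (blue), with genes ordered by their difference along the horizontal axis and short bars at the genotype means. The genotypes are apart in 9 genes and overlap in Ddx54, and WT5 is the lowest point in each of the 6 genes that rose.

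The regions around the transcription starts of the members were read from RefSeq (assembly GRCm38.p6), in windows of 300 bases that hold 250 before and 50 after the start, and all 10 genes had one. They are shown because 6 of the 10 members rose together, and the letters are a description that was not tested. The E-box CACGTG, the site that Myc and its partners bind, was in 0 of 10 member windows, in 7.15% of all windows and in 9.04% of those of genes with a probe set, and 0 of 10 is near these background shares. It was in 1 of 11 windows of the other helicases of ribosome assembly, 3 of 16 of DEAD-box helicases outside the nucleolus and 3 of 10 of nucleolar partners. Windows were matched for only 16 of the 19 measured DEAD-box helicases outside the nucleolus and 10 of the 13 partners. The letters CGGAAG (on either strand, so CTTCCG as well), the core of sites bound by ETS family factors, were in 8 of 10 member windows, against 16.9% of all windows and 24.8% of the windows of 14369 genes with a probe set. This second motif was picked after the sequences had been read. Member windows had 47.3% to 69.0% of G and C, and among genes with a probe set and at least that lowest share 27.5% held CGGAAG. It was in 4 of the 6 members that rose (not in Ddx51 and Ddx56) and in all 4 that did not pass. In the other lists described further on it was in 6 of 11 windows of helicases of ribosome assembly, 7 of 16 of DEAD-box helicases outside the nucleolus and 4 of 10 of nucleolar partners. For each member with a match, 30 bases around the match nearest to the start are given 5′ to 3′ on the gene's strand, with the 6 matching letters in capitals:
Ddx21, chr10:62602305-62602334, minus strand: tgcactccgctgCGGAAGtgacgaataggc
Ddx52, chr11:83942080-83942109, plus strand: ctcctggagcgaCTTCCGctacggcctgtg
Ddx27, chr2:167015300-167015329, plus strand: actcgctacgtcCGGAAGtggctgcttctt
Ddx18, chr1:121567931-121567960, minus strand: gtccgcaggctccagcggtacaCTTCCGac
Ddx10, chr9:53248063-53248092, minus strand: cacacgctggtttcgcgtCTTCCGtgctgt
Ddx49, chr8:70302461-70302490, minus strand: gcattcacgcgcCGGAAGcactcatttcta
Ddx47, chr6:135011609-135011638, plus strand: gcctcggccccaCTTCCGgagcccacgagc
Ddx54, chr5:120613098-120613127, plus strand: aggccccgccctCTTCCGggtctaagagcc
The match lies before the start in Ddx21, Ddx49 and Ddx54, across it in Ddx27 and after it in the remaining ones.

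Other differences between the lines stood beside those of the helicases. Array standard deviations ran from 0.202 to 0.272, and the 3′ minus 5′ difference of the Gapdh and beta-actin control probe sets lay between -0.023 and 0.071 on all 4 arrays. These control probe sets are centred like the others, so this difference compares the arrays and does not show how intact the RNA was. The 18S rRNA control probe sets averaged 0.64, 0.070, -0.070 and -0.77 in KO2, KO4, WT5 and WT6. Both knockout lines were thus above both wild-type lines in this control, with WT6 the lowest. The part of this control in the helicase differences was not tested. Of 7 smooth muscle markers 6 rose, with list medians relative to the wild-type mean of 1.01 in KO2, 0.85 in KO4, -0.068 in WT5 and 0.068 in WT6. Of 8 fibroblast markers 5 fell (medians -0.90, -0.59, 0.13 and -0.13 in KO2, KO4, WT5 and WT6). Among 5 macrophage markers 0 were called by limma, with 0 at an unadjusted p under 0.05, and their medians of 0.083, 0.99, 0.89 and -0.89 divided the lines within each genotype. Of 5 epithelial markers Krt8 rose and Krt19 fell, and of 4 endothelial markers Tek fell. Centred values cannot show which of these markers were absent, and their part in the helicase result was not tested.

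Ddx21 showed the largest increase. It binds rRNA genes and their transcripts and is known both for helping RNA polymerase I transcription and for a role in snoRNA-guided processing. Its mean of 2 probe sets was 0.37 in KO2, 0.39 in KO4, -0.77 in WT5 and -0.36 in WT6. The knockout lines lay close together and above both wild-type lines, of which WT5 was the lower. Ddx21 was 1.93-fold higher (log2 difference 0.95 ± 0.153 SE, limma adjusted p = 0.0273). Both probe sets, drawn from the same source sequence, gave the same size (0.95 ± 0.152 and 0.95 ± 0.163), and both were called. Without WT5 the difference was 0.74, and without WT6 it was 1.16.

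Among 5 helicases known mainly for the large subunit, from work on them or their yeast counterparts, 4 rose and Ddx54 did not pass. Their differences ran from 0.076 to 0.71, with a median of 0.59. Ddx56, the counterpart of yeast Dbp9 in early 60S particles, was at 0.39 in KO2, 0.28 in KO4, -0.47 in WT5 and -0.28 in WT6. It was 1.64-fold higher (0.71 ± 0.103, limma adjusted p = 0.0226), from 1 probe set.

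Ddx27, the counterpart of yeast Drs1, is known as a partner of the PeBoW complex of Pes1, Bop1 and Wdr12. Its mean was 0.30 in KO2, 0.20 in KO4, -0.40 in WT5 and -0.28 in WT6, without overlap. The gene mean rose 1.51-fold (0.59 ± 0.0939, limma adjusted p = 0.0266). Neither probe set was called by itself: 1424161_at stood at 0.75 ± 0.157 (limma adjusted p = 0.0518) and 1425541_at at 0.44 ± 0.115 (limma adjusted p = 0.0836). The 2 differ in the wild-type lines, where WT5 was below WT6 by 1424161_at (-0.67 and -0.26) and above it by 1425541_at (-0.14 and -0.30).

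Ddx18, the counterpart of yeast Has1, acts on snoRNA release and in early 60S particles. It averaged 0.27 in KO2, 0.24 in KO4, -0.47 in WT5 and -0.20 in WT6, and the wild-type lines differed from each other more than the knockout lines did. Ddx18 rose (log2 difference 0.59 ± 0.117, limma adjusted p = 0.0402). Of its 3 probe sets, 1416070_a_at (0.66 ± 0.134) and 1416071_at (0.61 ± 0.109), which share a source sequence, were called. The third, 1456000_at, was not (0.49 ± 0.148, limma adjusted p = 0.115).

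Ddx51, the counterpart of yeast Dbp6, is needed to release the U8 snoRNA and to trim the 3′ end of 28S rRNA. Its single probe set was at 0.21 in KO2, 0.27 in KO4, -0.24 in WT5 and -0.21 in WT6, so lines of 1 genotype lay near each other. It rose 1.38-fold (0.47 ± 0.0809, limma adjusted p = 0.0317). Ddx54, the counterpart of yeast Dbp10, did not pass. It was at 0.11 in KO2, -0.0021 in KO4, -0.061 in WT5 and 0.019 in WT6, where WT6 lay between the knockout lines. Its difference was 0.076 ± 0.0897 (limma adjusted p = 0.652), with a 95% confidence interval from -0.15 to 0.31. Its 3 probe sets stood at 0.21, 0.070 and -0.048, and with 1 line left out the gene's difference ran from 0.019 (without KO2) to 0.13 (without KO4).

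Of the 4 helicases known for the small subunit, 1 rose and 3 did not pass, with differences from 0.088 to 0.71 and a median of 0.24. The grouping by subunit was made with the values known, and the difference between the groups was not tested. Ddx52, the counterpart of yeast Rok1, frees a snoRNA from the precursor. It was at 0.31 in KO2, 0.32 in KO4, -0.49 in WT5 and -0.30 in WT6, and rose 1.64-fold (0.71 ± 0.0979, limma adjusted p = 0.0209). Its probe sets, drawn from the same source sequence, disagreed in size. Probe set 1434608_at was at 0.50 in KO2, 0.48 in KO4, -0.57 in WT5 and -0.48 in WT6, a 2.02-fold increase (1.01 ± 0.0935, limma adjusted p = 0.0157) that was the largest among the 22. Probe set 1434607_at was at 0.12, 0.17, -0.41 and -0.12 in KO2, KO4, WT5 and WT6 and was not called (0.41 ± 0.127, limma adjusted p = 0.119). Ddx52 lies on chromosome 11, 5.96 Mb from the start of Phf12, and Ddx56 is on the same chromosome at 71.72 Mb from it. The other 8 members are on other chromosomes.

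Ddx10, the counterpart of yeast Dbp4, was at 0.12 in KO2, 0.15 in KO4, -0.16 in WT5 and -0.12 in WT6. The genotypes did not overlap, but the difference of 0.27 ± 0.0794 missed the threshold (limma adjusted p = 0.0895). Its probe sets stood at 0.41 ± 0.108 (1452838_at) and 0.14 ± 0.104 (1428563_at). Ddx49, the counterpart of yeast Dbp8, was at 0.18 in KO2, -0.0056 in KO4, -0.12 in WT5 and -0.13 in WT6. Its difference was 0.21 ± 0.0979 (limma adjusted p = 0.228), and its 3 probe sets ran from 0.43 (1435681_s_at) through 0.28 (1455563_at) to -0.060 (1457947_at), so they did not share a direction. The gene's difference was 0.098 with the median of its probe sets, 0.11 with plain _at probe sets alone and 0.12 without KO2. Ddx47, the counterpart of yeast Rrp3, was at 0.030, 0.047, -0.067 and -0.031 in KO2, KO4, WT5 and WT6. The difference was 0.088 ± 0.0794 (limma adjusted p = 0.544), with a 95% confidence interval from -0.12 to 0.29.

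**Figure D2:**
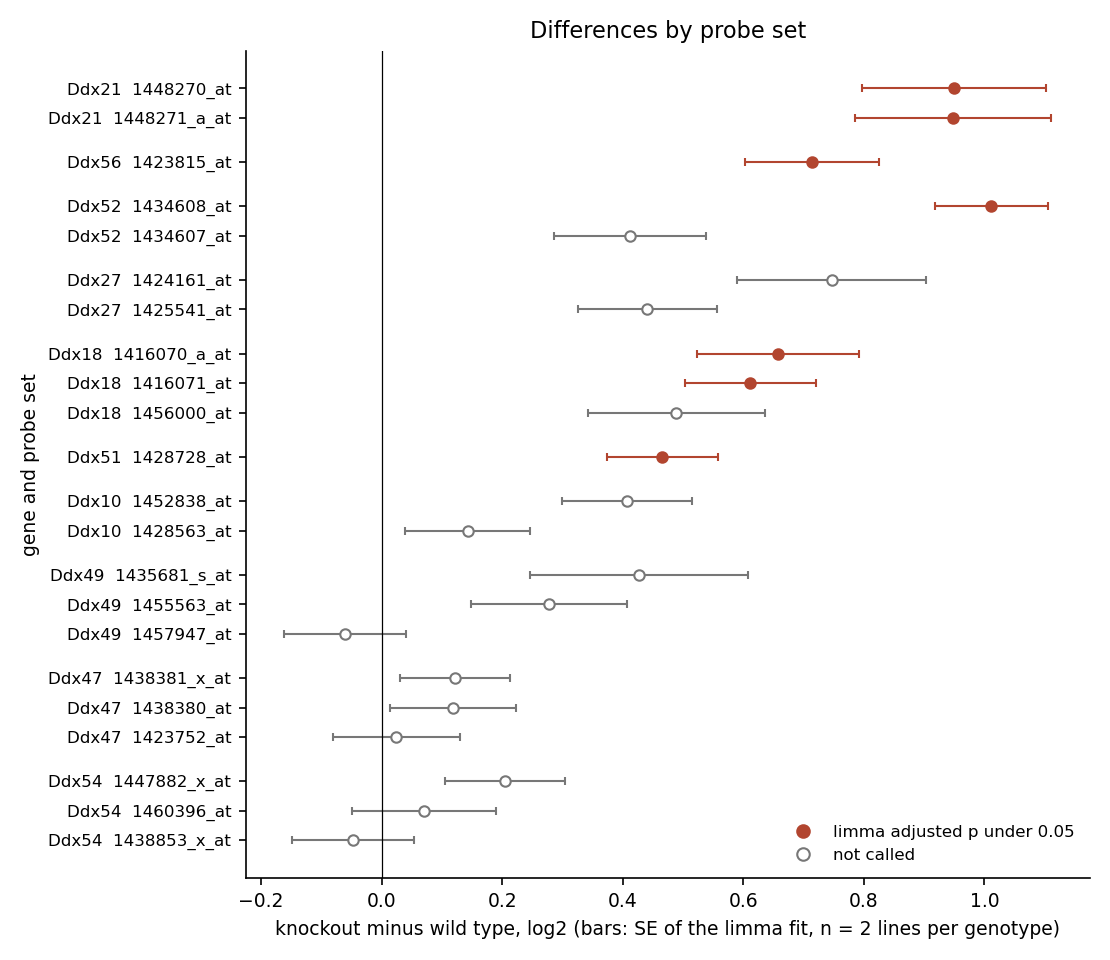
Knockout minus wild-type difference on the log2 scale (horizontal axis) of each of the 22 probe sets, grouped by gene, with bars for the SE of the limma fit and filled points for probe sets called at an adjusted p under 0.05. Probe sets of Ddx21, drawn from the same source sequence, coincide at 0.95. Those of Ddx52, also from a shared sequence, stand at 1.01 and 0.41, and 2 of the 22 are below 0.

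By probe set, limma called 7 of 22 higher and 0 lower, and 3.92% of all probe sets were called higher. By unadjusted p 12 were higher and 0 lower. Of the 22 differences 20 were positive. For these counts no share over all probe sets was computed. By gene, 14.3% of all were higher by unadjusted p and 49.2% had a positive difference. Both knockout lines lay above both wild-type lines in 17 of 22 probe sets, against 27.8% of all probe sets, and the genotypes overlapped in the other 5, which belong to Ddx47, Ddx49 and Ddx54. By gene mean, both knockout lines were above both wild-type lines in 9 of 10 members, against 28.7% of all genes. In order of their difference the members were Ddx21, Ddx56, Ddx52, Ddx27, Ddx18, Ddx51, Ddx10, Ddx49, Ddx47 and Ddx54. The 95% confidence intervals overlapped in all 9 pairs of neighbours in this order, with steps of up to 0.24 (Ddx21 to Ddx56), and the differences between members were not tested. The intervals of Ddx21 (0.56 to 1.34) and Ddx54 (-0.15 to 0.31), the ends of the order, did not overlap.

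The knockout lines resembled each other more than the wild-type lines did in 7 of 10 members. Gaps between the knockout lines ran from 0.015 to 0.19 (median 0.043) and gaps between the wild-type lines from 0.0063 to 0.42 (median 0.10). The difference between genotypes exceeded both of these gaps in 9 members, with Ddx54 as the exception. For this count and for the 7 of 10, the share over all genes was not computed. WT5 was the lowest of the 4 lines in all 6 members that rose and in 16 of 22 probe sets. By gene mean it was the lowest line in 30.5% of all genes. Both knockout lines lay above both wild-type lines in these 6 members, so a wild-type line had to be the lowest. No share was computed among genes of that order or among all probe sets. The array of WT5 also had the largest standard deviation (0.272, against 0.235 for WT6). WT5 was also the lowest in 9 of 11 proliferation markers, of which limma called 0 (5 higher, 0 lower by unadjusted p) and whose median difference was 0.27. The replicative helicase subunit Mcm4 was at 0.24 in KO2, 0.25 in KO4, -0.66 in WT5 and -0.23 in WT6 (0.69 ± 0.156, limma adjusted p = 0.0536). Mcm2 (0.81 ± 0.203, limma adjusted p = 0.0662), Mcm3 (0.57 ± 0.168) and Mcm5 (0.44 ± 0.144) were likewise lowest in WT5 and missed the threshold. Under 6 other settings limma called Mcm4 in 3 and Mcm2 in 2, so these are near the threshold. With WT5 left out, Mcm2 stood at 0.51, Mcm3 at 0.34 and Mcm5 at 0.29. Whether proliferation has a part in the helicase differences was not tested.

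**Figure D3:**
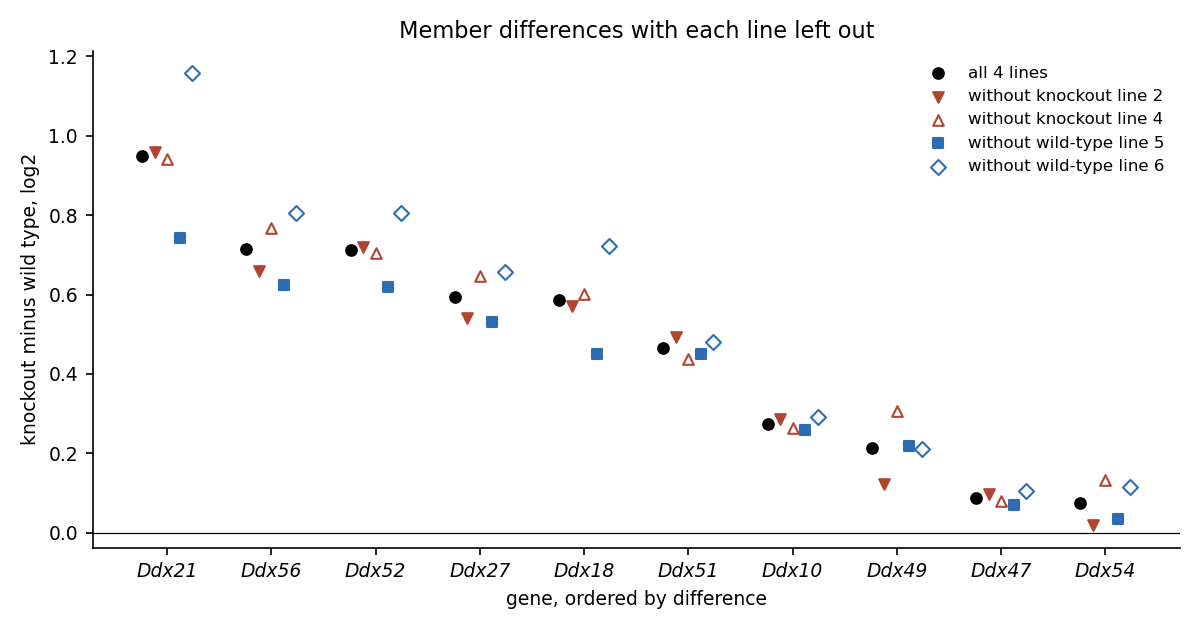
Knockout minus wild-type difference on the log2 scale (vertical axis) of each helicase gene with all 4 lines (black) and with each line left out in turn (coloured symbols), genes ordered by difference. All differences stay above 0, which could have failed only in Ddx54, where the genotypes overlap. Those of Ddx21 move most, from 0.74 without WT5 to 1.16 without WT6.

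With each line left out in turn, limma called 0 of 10 members. At an unadjusted p under 0.05 there were 6 when KO2 or KO4 was left out and 7 when WT5 or WT6 was, all of them higher. No share of all genes by unadjusted p was computed for these fits. All 10 differences stayed positive in each of them, with medians of 0.52 (KO2 out), 0.52 (KO4 out), 0.45 (WT5 out) and 0.57 (WT6 out). In the 9 members with both knockout lines above both wild-type lines this had to follow, so only Ddx54 could have changed sign. These fits keep 1 residual degree of freedom, and over all 18194 genes they called 87 higher and 234 lower with KO4 out, 1 lower with WT5 out and none with KO2 or WT6 out. With all 4 lines, 947 genes were called higher and 1264 lower.

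Of 13 nucleolar proteins that work in the same steps 7 rose and 6 missed the threshold, the median difference was 0.61, and 11 were higher (0 lower) by unadjusted p. Nop58, a core protein of box C/D snoRNPs, was at 0.57 in KO2, 0.52 in KO4, -0.92 in WT5 and -0.52 in WT6, a 2.40-fold increase (1.27 ± 0.148, limma adjusted p = 0.0168). Nol10 (1.07 ± 0.161), the counterpart of yeast Enp2, which works with the yeast form of Ddx10, rose although Ddx10 itself missed the threshold. Abt1 (0.72 ± 0.0973), the counterpart of yeast Esf2, which activates the yeast form of Ddx49, rose while Ddx49 did not pass. Wdr43, a small-subunit processome protein, rose as well (0.66 ± 0.0872, limma adjusted p = 0.0195). Beside Ddx27, its PeBoW partners Pes1 (0.70 ± 0.132) and Wdr12 (0.61 ± 0.129) rose and Bop1 stood at 0.38 ± 0.127 (limma adjusted p = 0.122). Pes1, Wdr12 and Bop1, and Nop56 (0.96 ± 0.192), which completes the 7, were named after their values were seen. Without WT5, Bop1 stood at 0.23. Wdr12 lost its call when the median of its probe sets was used (0.52, limma adjusted p = 0.0828).

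Among 11 other helicases of ribosome assembly, 2 rose and 9 missed the threshold. Their median difference was 0.22, and by unadjusted p 4 were higher and 1 lower. The DEAH-box proteins Dhx37, the U3-releasing factor of the small subunit (0.61 ± 0.102, limma adjusted p = 0.0286), and Dhx33, a factor of RNA polymerase I transcription (0.53 ± 0.0787, limma adjusted p = 0.0237), were the ones that rose. Dhx15, shared by splicing and ribosome assembly, stood at 0.35 ± 0.0791 (limma adjusted p = 0.0527). Eif4a3, best known from the exon junction complex, was lower in both knockout lines (-0.12 in each, against 0.24 in WT5 and 0.12 in WT6) and missed the threshold (-0.30 ± 0.0881, limma adjusted p = 0.0947). The DEAD-box proteins Ddx5 (0.19), Ddx17 (0.22), Ddx24 (0.14), Ddx31 (0.48) and Ddx55 (0.14) of this list were not called either. Neither was Ddx50, which was lower in both knockout lines (-0.11).

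DEAD-box helicases that act outside the nucleolus were set beside the members. Of 20 listed, 19 were measured, 3 rose, 1 fell and 15 did not pass, and the median difference was 0.12. The same test called 6.95% of all genes lower. Ddx39a, a helicase of mRNA export, rose 1.93-fold (0.95 ± 0.152, limma adjusted p = 0.0271), as large a difference as that of Ddx21, at 0.40 in KO2, 0.40 in KO4, -0.76 in WT5 and -0.34 in WT6. Ddx41 (0.73 ± 0.0885) and the splicing helicase Ddx46 (0.73 ± 0.0902) also rose. Ddx58, the RNA sensor RIG-I of the interferon response, was at -0.46 in KO2, -0.24 in KO4, 0.49 in WT5 and 0.24 in WT6 and fell 1.65-fold (-0.72 ± 0.131, limma adjusted p = 0.0339). Whether the members differ from these lists was not tested.

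**Figure D4:**
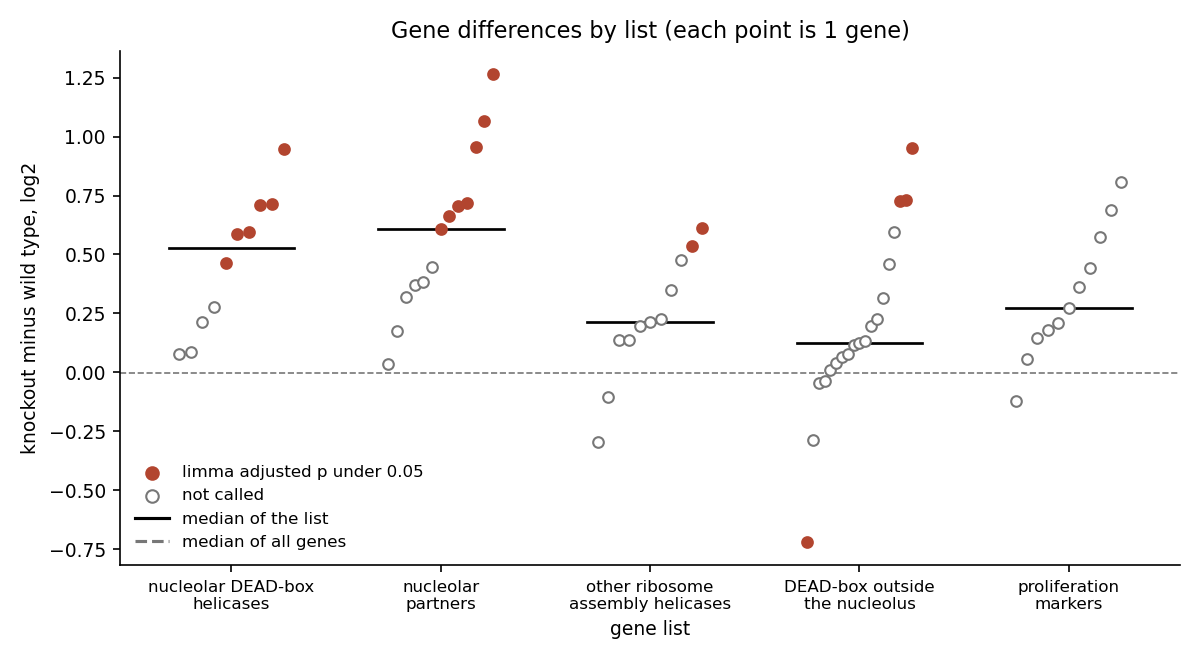
Knockout minus wild-type difference on the log2 scale (vertical axis) of each gene, 1 point per gene, in the nucleolar DEAD-box helicases and 4 other lists, with filled points for genes called by limma, a black bar at the median of each list and a dashed line at the median of all genes. List medians are 0.53 for the nucleolar DEAD-box helicases, 0.61 for nucleolar partners, 0.22 for other ribosome assembly helicases, 0.12 for DEAD-box helicases outside the nucleolus and 0.27 for proliferation markers.

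The genes nearest to the median profile of the 10 members over the 4 lines, by Euclidean distance, were Ube2q2 (0.0213), Pdap1 (0.0247), Col7a1 (0.026), Ctbp2 (0.0272) and Cbll1 (0.0284). Ube2q2, a ubiquitin-conjugating enzyme, was at 0.22 in KO2, 0.21 in KO4, -0.31 in WT5 and -0.21 in WT6. The differences of all 5 lay between 0.48 and 0.52, and limma called each of them higher, which follows from how they were picked.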

How the data were processed

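RNA of 4 MEF lines was hybridised to 1 Affymetrix array each. The array named in the series text is a smaller design than the deposited 45101 probe sets need, and the platform annotation that matches them was used. The deposited values are log2 signals made with Affymetrix Expression Console and RMA, per the submitters' processing notes, which give no versions. The log base was taken from the method. Each probe set had been centred to a median of 0 over the arrays (to within 1e-06), which the labels do not describe, so no dim probe set could be left out. The number of arrays limits the precision.

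Symbols came from the platform annotation (34958 probe sets with 1 gene, 932 with several, left out). A gene's value is the mean of its probe sets. Knockout minus wild type was fitted with limma 3.58.1 in R 4.3.3 (lmFit, eBayes, no covariates, 2 residual and 3.04 prior degrees of freedom) over all 18194 genes and over 45037 probe sets without the 64 controls, with Benjamini-Hochberg adjustment over each table. The fit was tested on simulated data in which genes varied independently of each other, so shifts of a line shared by many genes were not covered. Line numbers differ between the genotypes, so nothing pairs the lines.

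The 10 members and all lists were chosen with earlier results of these data known. Named are all members, Phf12, up to 4 genes per list with the smallest p (helicases, partners, proliferation markers) and the 5 genes nearest to the members' median profile. Pes1, Wdr12, Bop1, Nop56, Krt8, Krt19, Tek, Ddx5, Ddx17, Ddx24, Ddx31, Ddx50 and Ddx55 were named outside this rule, after their values were seen. Other markers were summarised by list. Motif matches were counted in RefSeq windows.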

Additional observations from a re-analysis of the deposited data

How the results depend on the processing

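Across 6 other settings (quantile normalisation of the arrays, arrays centred on their medians, array weights, a robust eBayes prior, the median of a gene's probe sets, and only probe sets with plain _at names), limma called the same 6 of 10 members higher and none lower (at an unadjusted p under 0.05, 7 higher in each), and all 60 of their values kept direction and side of the threshold. These 6 settings are not independent checks. Array weights and the robust prior leave each difference as in the main fit and can change only its SE. The median of probe sets equals the mean in genes with 1 or 2 probe sets. The choice of plain _at names changes only genes that also have other probe sets. With it Ddx18 stood at 0.55 and only just kept its call (limma adjusted p = 0.04999). The median difference of the members stayed between 0.51 and 0.53. Probe sets called were 7 or 8 of 22 under the 4 settings that apply to them, and 1424161_at of Ddx27 passed under 3 of these. Calls among other helicases and partners, 12 higher in the main fit, were 11 to 16. With 1 line left out, calls fell to 0 in each of the 4 fits for member genes, member probe sets and the other helicases and partners, where the fit keeps 1 residual degree of freedom and the lone line is assumed to vary like the other genotype's. The median difference then ran from 0.45 to 0.57 (0.45 without wild-type line 5, 0.57 without wild-type line 6). Probe sets near 0 changed sign in these fits: 1423752_at ran from -0.053 to 0.10, 1460396_at from -0.031 to 0.17, 1457947_at from -0.13 to 0.013 and 1438853_x_at from -0.12 to 0.028. No paired analysis was possible because the line numbers are not shared between the genotypes.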
